A study of Rattus norvegicus with 4 samples.

Results

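The genes examined here were the collagen chain genes of rat S16 cells, taken as every gene symbol of the form Col, a number, a and a number. This rule found 44 of the 30708 genes listed. S16 cells are immortalized Schwann cells of rat origin, and the study used them to test regulatory sequences of the peripheral nerve. RNA-Seq of poly(A) RNA was available for 2 populations of unmodified S16 cells, each with 2 libraries labelled technical replicate 1 and 2. One population was at passage 9 and was the parental line of cells later edited at an enhancer, and the other was an older culture at passage 39. Both were grown to confluence in a flask without an edit or a treatment, and each is a single culture, so there was no replicate of a passage and no p-value was computed. Values are RPKM, that is, read counts scaled to gene length and to library size, which allows levels of different genes to be compared.

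Collagens are secreted as trimers of alpha chains, each chain from its own gene, and the chains that a cell makes limit which collagen types it can assemble. Fibrillar types I, III, V and XI build fibrils, the FACIT chains lie on fibril surfaces, type IV forms the network of basement membranes, and type VI forms beaded filaments. Schwann cells in nerve surround themselves with a basement membrane, whose assembly is known to be tied to ensheathment and myelination.

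The 4 libraries did not group by passage. Libraries with the same replicate number at different passages lay close together, whereas replicates 1 and 2 of one passage lay far apart. Over the 20 chains with a mean of at least 1 RPKM, the SD of the log2 differences was 0.425 between the 2 passage 9 libraries and 0.432 between the 2 passage 39 libraries, compared with 0.0386 between the replicate 1 libraries and 0.0399 between the replicate 2 libraries. A chi-square of recovered reads over all genes averages about 1 when libraries differ by counting error only. It averaged 64.9 and 62.2 within passages 9 and 39, but 1.12 between the 2 replicate 1 libraries and 1.36 between the 2 replicate 2 libraries. Each chain is therefore given in the order passage 9 replicate 1, passage 9 replicate 2, passage 39 replicate 1 and passage 39 replicate 2. Per the study's methods, technical replicates were pooled and run over 2 sequencing lanes, and what set them apart before that is not given in the sources used here. The groups follow the labels. Whether the number or the passage separates the 2 populations cannot be told apart by these values, and if the number did, the differences by number would be those between the populations. Each passage difference, and each SD over the 2 population means, rests on the labels. The read totals recovered from the values ran from 34246093 to 41382234 a library. The study's methods state fewer reads per cell line than each of these totals, and the sources used here do not explain the difference. Shares of reads and counting intervals rest on the recovered totals. Reads and lengths of a gene are the smallest whole numbers that give its values, and can be low by a whole-number factor.

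The cells carried the RNAs that mark Schwann cells. Of 10 Schwann cell markers, 9 had a mean of at least 1 RPKM. Sox10, the transcription factor of the Schwann cell lineage, was at 174, 183, 171 and 176 RPKM in the 4 libraries. Of 10 fibroblast markers, 3 reached 1 RPKM (Mfap5, Fbln1 and Pdgfra). The summed fibroblast markers were between 46.9 and 50.1 RPKM, Thy1 and Fap were listed at 0 in every library, and Dcn was at most 0.0132 RPKM.

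Several collagen genes lie side by side in the rat genome. Members are neighbours, with no other protein-coding gene between them, in 7 pairs of the RefSeq annotation of GRCr8, among them Col4a1 and Col4a2, Col6a1 and Col6a2, and Col3a1 and Col5a2. Neighbours did not always differ together between the libraries. Col3a1 was at 82.8, 50.3, 81.9 and 48.5 RPKM, and Col5a2 at 419, 437, 422 and 435 RPKM. The files use the older rn5 build, so the GRCr8 sequences below carry no coordinates of the files. Shown first, because Col4a1 and Col4a2 differed together between the libraries, is the whole stretch between their divergent starts on the plus strand (chr16:84885521-84885596). The others are the 250 bases before the start of Col1a2 (chr4:33518307-33518556, plus strand), of Col6a1 (chr20:11905440-11905689, plus strand) and of Col6a3 (chr9:98886959-98887208, minus strand), which set the upstream sequence of a high type VI chain beside those of low partner chains of types I and VI. Capitals mark matches on either strand to the CCAAT box, to the GC box written GGGCGG, to the TATA box written TATAAA, or to the core of SOX protein sites written ACAAAG.
Col4a1 to Col4a2: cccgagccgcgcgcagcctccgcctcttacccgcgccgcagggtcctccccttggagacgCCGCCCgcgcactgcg
Col1a2: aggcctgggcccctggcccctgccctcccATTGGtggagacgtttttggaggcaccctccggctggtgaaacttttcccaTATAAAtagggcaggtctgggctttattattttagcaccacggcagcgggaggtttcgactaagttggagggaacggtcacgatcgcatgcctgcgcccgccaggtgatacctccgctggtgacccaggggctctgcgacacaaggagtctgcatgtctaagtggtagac
Col6a1: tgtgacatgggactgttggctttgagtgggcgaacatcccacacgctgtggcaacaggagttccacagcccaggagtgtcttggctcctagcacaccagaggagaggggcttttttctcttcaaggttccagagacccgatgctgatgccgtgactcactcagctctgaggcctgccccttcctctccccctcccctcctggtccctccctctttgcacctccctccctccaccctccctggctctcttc
Col6a3: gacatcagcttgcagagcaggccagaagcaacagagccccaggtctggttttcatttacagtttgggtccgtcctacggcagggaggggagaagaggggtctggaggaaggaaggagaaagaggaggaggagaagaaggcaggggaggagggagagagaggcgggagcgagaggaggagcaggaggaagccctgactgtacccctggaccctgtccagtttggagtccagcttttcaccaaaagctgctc

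The starts of Col4a1 and Col4a2 lay 77 bases apart on opposite strands, the stretch between them was 78.9% G and C, and its single match, GGGCGG, lay 16 bases before the Col4a1 start. The stretch before Col1a2 held a CCAAT match 221 bases and a TATAAA match 170 bases before the annotated start, and those before Col6a1 and Col6a3 held none of the 4 motifs. Promoter windows of 300 bases were found for 35 of the 44 members. Col1a1, Col14a1, Col6a2, Col3a1, Col9a3 and Col12a1, all with a mean above 1 RPKM, had no window, so the counts leave them out. Among the 14 members with a window and a mean of at least 1 RPKM, GGGCGG was in 11, CCAAT in 5, ACAAAG in 1 and TATAAA in 0. Among the 21 under 1 RPKM, the counts were 8 with GGGCGG, 6 with CCAAT, 3 with ACAAAG and 4 with TATAAA. Of all 33469 RefSeq windows of this length, 33.1% held GGGCGG, 37.5% held CCAAT, 18.8% held ACAAAG and 14.2% held TATAAA. A match is a run of letters and not a shown binding site.

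Collagen chains were among the most abundant RNAs of these cells. The 44 genes together took 3.67%, 3.85%, 3.67% and 3.76% of all reads in the 4 libraries. Their summed level was 6279 ± 49.5 RPKM (SD over the 2 population means, as for every mean below). Each population mean holds a library of either replicate number, so this SD leaves out the spread between the numbers. Of the 44 members, 12 had a mean of at least 50 RPKM, 5 lay between 5 and 50, 3 between 1 and 5, 5 between 0.1 and 1, and 15 above 0 and under 0.1. The other 4 members (Col4a3, Col4a4, Col26a1 and Col6a4) were listed at 0 in every library, as was Crtap, a subunit of the prolyl 3-hydroxylase complex, so a 0 is read only as a gene listed at 0. With 3 reads as the floor, the lowest level that could be told from 0 for a gene of median member length was between 0.0121 and 0.0146 RPKM. Counting did not use strand, so RNA from the opposite strand could not be told apart.

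**Figure D1:**
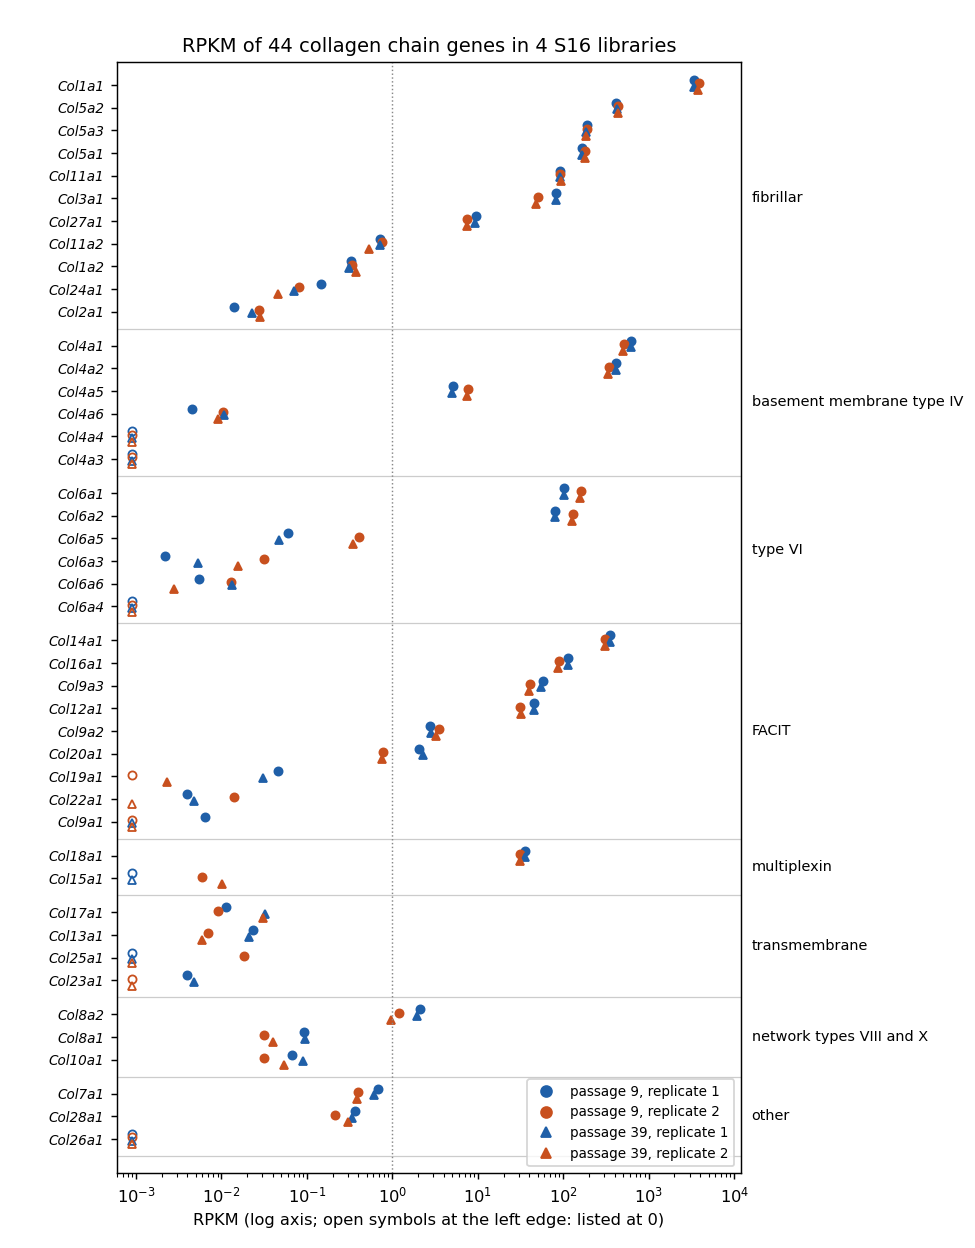
Level of each of the 44 collagen chain genes in RPKM on a log axis, one row per gene, grouped by collagen class and ordered by mean within a class. Circles are passage 9 and triangles passage 39, blue is replicate 1 and orange replicate 2, open symbols at the left edge are genes listed at 0, and the dotted line is at 1 RPKM, which 20 genes exceed on average.

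Among the fibrillar chains, Col1a1, the alpha 1 chain of type I collagen, had the highest level of any gene in each of the 4 libraries. It was at 3344, 3877, 3359 and 3771 RPKM, with a mean of 3588 ± 32.3. Both replicate 2 libraries were above both replicate 1 libraries, and the exact Clopper-Pearson 95% intervals of the 4 libraries, here called counting intervals, did not overlap between the numbers. Col1a1 alone made up 54.5%, 59.8%, 54.7% and 59.4% of the summed chain RPKM. The rest of the chains without Col1a1 summed to 2796, 2610, 2783 and 2575 RPKM, with the order of the libraries turned around.

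Col1a2, the alpha 2 chain that joins Col1a1 in the type I collagen of most tissues, was far lower. It was at 0.331, 0.338, 0.313 and 0.373 RPKM, from 134, 116, 105 and 150 reads. The ratio of Col1a1 to Col1a2 was 10111 (95% counting interval 8537 to 12068), 11484 (9575 to 13898), 10726 (8860 to 13114) and 10113 (8618 to 11949). The intervals of the 4 libraries overlapped, so the ratio did not differ detectably between libraries at this depth.

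The type V chains, which co-assemble with type I and set fibril diameter, came next among the fibrillar genes. Col5a2 was at 419, 437, 422 and 435 RPKM. Col5a3 was at 188, 188, 185 and 185 RPKM and Col5a1 at 166, 181, 165 and 179 RPKM. By RPKM, Col5a3 was thus at or above Col5a1 in every library, at 1.13, 1.04, 1.12 and 1.04 times its level, while Col5a2 was between 2.41 and 2.55 times the level of Col5a1. Col5a1 had more reads than Col5a3 in every library. Their order by RPKM therefore rests on the recovered lengths, 6052 bases for Col5a3 and 8193 for Col5a1, whose gene models are not given.

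Col11a1, a type XI chain related to those of type V, was at 90.4, 92.6, 91.0 and 93.6 RPKM. Its partner Col11a2 was at 0.723, 0.759, 0.717 and 0.535 RPKM, and the ratio of Col11a1 to Col11a2 ran from 122 to 175. Col3a1, the single chain of type III collagen, was at 82.8, 50.3, 81.9 and 48.5 RPKM, with both replicate 1 libraries clear of both replicate 2 libraries. The ratio of Col1a1 to Col3a1 was accordingly 40.4 and 41.0 in the replicate 1 libraries and 77.1 and 77.8 in the replicate 2 libraries. Col27a1, another fibrillar chain, was at 9.42, 7.51, 9.33 and 7.41 RPKM. The cartilage chain Col2a1 had between 3 and 6 reads a library, and Col24a1 between 10 and 32.

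**Figure D2:**
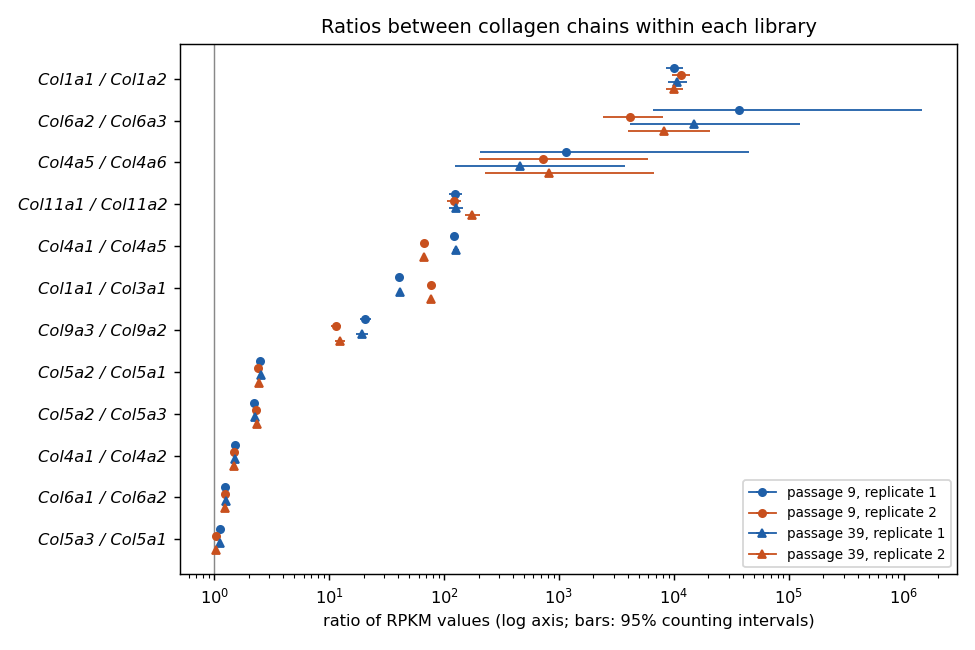
Ratio of the RPKM of 2 chains within each library, on a log axis, with 95% counting intervals as bars that are often narrower than the symbols. The ratio of Col4a1 to Col4a2 is 1.50 to 1.53 and that of Col6a1 to Col6a2 is 1.24 to 1.26. Col1a1 exceeds Col1a2 by 10111 times or more in each library.

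The basement membrane genes were led by Col4a1 and Col4a2, the alpha 1 and alpha 2 chains of the common type IV trimer. Col4a1 was at 627, 508, 626 and 496 RPKM, with a mean of 564 ± 4.45. Col4a2 was at 412, 338, 409 and 331 RPKM, with a mean of 372 ± 3.67. Both were higher in the 2 replicate 1 libraries, and their ratio was close to constant. It was 1.52 (1.51 to 1.53), 1.50 (1.49 to 1.52), 1.53 (1.52 to 1.54) and 1.50 (1.49 to 1.51), while the levels of both genes were about 1.23 to 1.25 times higher in the replicate 1 libraries.

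Col4a5, an X-linked chain of the alpha 3, alpha 4 and alpha 5 trimer and of the alpha 5 and alpha 6 trimer, ran the other way. It was at 5.12, 7.63, 4.92 and 7.41 RPKM, and the ratio of Col4a1 to Col4a5 was 122, 66.6, 127 and 67.0. Of its partners, Col4a3 and Col4a4 were listed at 0 in every library, and Col4a6 had 1, 2, 2 and 2 reads.

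Type VI collagen was represented mainly by Col6a1 and Col6a2, while Col6a3, the alpha 3 chain that completes its usual trimer, had few reads. Col6a1 was at 101, 162, 101 and 159 RPKM (mean 131 ± 1.35), and Col6a2 at 80.8, 131, 80.1 and 128 RPKM (mean 105 ± 1.19). Both replicate 2 libraries lay far above both replicate 1 libraries for either gene. The ratio of Col6a1 to Col6a2 was 1.25, 1.24, 1.26 and 1.24, with overlapping counting intervals in the 4 libraries.

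Col6a3 had 1, 12, 2 and 7 reads in the 4 libraries, and the ratio of Col6a2 to Col6a3 lay between 4194 and 36663 with wide intervals. Of the chains that can take the place of alpha 3, Col6a5 was at 0.0605, 0.407, 0.0477 and 0.342 RPKM, from 23, 131, 15 and 129 reads. Its replicate 2 libraries were 6.72 times (4.29 to 11.0) and 7.17 times (4.19 to 13.2) above the replicate 1 libraries at passages 9 and 39. Col6a6 had between 1 and 4 reads, and Col6a4 was listed at 0.

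The FACIT chains, which bind to fibril surfaces and link them to other matrix, were led by Col14a1 at 352, 306, 350 and 309 RPKM. Col16a1 followed at 114, 89.1, 113 and 86.6 RPKM. Col12a1, a chain of similar build to Col14a1, was at 45.7, 31.3, 44.9 and 31.7 RPKM. These 3 genes were each higher in both replicate 1 libraries than in both replicate 2 libraries, and Col12a1 differed most, so the ratio of Col14a1 to Col12a1 went from 7.70 and 7.79 in the replicate 1 libraries to 9.77 and 9.76 in the replicate 2 libraries.

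Type IX collagen is made from the chains Col9a1, Col9a2 and Col9a3, and these were unequal. Col9a3 was at 57.2, 40.6, 54.6 and 39.6 RPKM, Col9a2 was at 2.76, 3.56, 2.83 and 3.20 RPKM, and Col9a1 had 1 read in passage 9 replicate 1 and none elsewhere. The ratio of Col9a3 to Col9a2 was 20.7 and 19.3 in the replicate 1 libraries but 11.4 and 12.4 in the replicate 2 libraries. Col20a1 was at 2.03, 0.784, 2.29 and 0.756 RPKM, and so reached a mean of 1 RPKM through its replicate 1 libraries. Col19a1, at the low end, had 20, 0, 11 and 1 reads, and Col22a1 had 3 or fewer.

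Among the remaining classes, Col18a1, the multiplexin chain whose C-terminal fragment is endostatin, was at 35.5, 31.2, 35.7 and 30.8 RPKM. The other multiplexin, Col15a1, had 0, 1, 0 and 2 reads. Col8a2, a short-chain network collagen, was at 2.12, 1.18, 1.96 and 0.964 RPKM, while its partner Col8a1 was between 0.0312 and 0.0958 RPKM and Col10a1, the hypertrophic cartilage chain, between 0.0316 and 0.0891 RPKM. Col7a1, the chain of the anchoring fibrils of skin, was at 0.677, 0.399, 0.603 and 0.383 RPKM. Col28a1, a chain described in peripheral nerve, was between 0.215 and 0.370 RPKM. The 4 transmembrane chains (Col13a1, Col17a1, Col23a1 and Col25a1) summed to between 0.0345 and 0.0584 RPKM.

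The first comparison asked whether the chains differed between the parental population and the older one. None of the 20 chains that averaged 1 RPKM or more was 2-fold apart on the log2(RPKM + 1) scale between passage 39 and passage 9, and 0.00907% of the 11025 genes tested were. The log2 differences of the 20 chains ran from -0.11 for Col8a2 to 0.07 for Col20a1, with a median of -0.02 against -0.00 over all genes tested. A second rule asks that both libraries of one group lie outside both of the other with no overlap of their 95% counting intervals. By it the count was 0 of 20, with 0% of all genes tested. Same-numbered libraries lay close together and the 2 libraries of a passage far apart, so few genes could have met this rule. No conclusion on the passages is drawn from it. The population means were 3611 RPKM at passage 9 and 3565 RPKM at passage 39 for Col1a1, a log2 difference of -0.02 that is smaller than the spread between the libraries of either passage.

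Within a replicate number the passages could be set side by side with less spread. Between the replicate 1 libraries, the passage 39 level was between 0.922 and 1.12 times the passage 9 level, and the 95% counting interval covered 1 for 16 of 20 chains. Between the replicate 2 libraries it was between 0.816 and 1.01 times, and the interval covered 1 for 11 of 20. Col1a1 was 1.004 times (1.001 to 1.008) the passage 9 level among the replicate 1 libraries and 0.973 times (0.970 to 0.976) among the replicate 2 libraries. These intervals compare single libraries and cover counting error only, and reads of amplified libraries without molecular identifiers are not independent molecules. For Col1a1 the passage 39 level was thus higher in one pair and lower in the other. Intervals that missed 1 were below 1 for 2 chains and above it for 2 among the replicate 1 libraries, and below 1 for 9 chains and above it for 0 among the replicate 2 libraries. The share over all genes tested was not counted for these intervals, so the counts are not read as particular to the chains. Col5a3 was lower at passage 39 in both pairs, at 0.984 times (0.971 to 0.998) and 0.986 times (0.973 to 0.9998). By population means, 16 of the 20 chains were lower at passage 39, by small amounts as given above, as were 5756 of all 11025 genes tested.

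**Figure D3:**
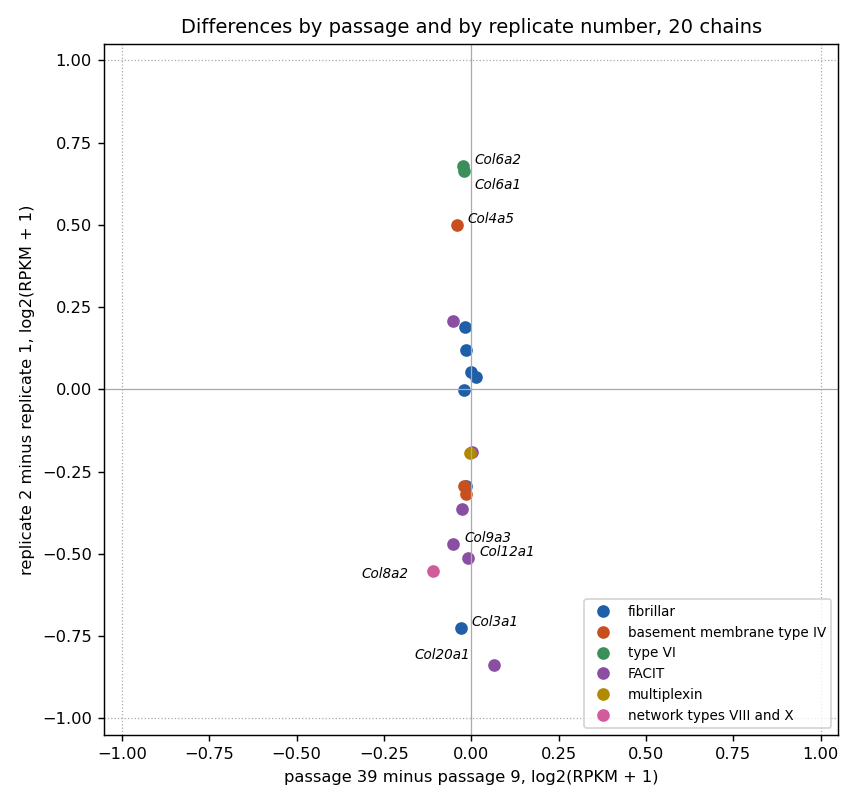
Difference between passages (passage 39 minus passage 9, horizontal axis) against difference between replicate numbers (replicate 2 minus replicate 1, vertical axis), both as log2(RPKM + 1), for the 20 chains with a mean of at least 1 RPKM, coloured by class, with dotted lines at 2-fold. The points form a narrow upright band, from -0.11 to 0.07 across and from -0.84 (Col20a1) to 0.68 (Col6a2) up. Values are as deposited, and Col5a2, Col5a3 and Col11a1, near 0 on the vertical axis, lie below 0 under the other scalings tried.

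The same chains were then compared by replicate number. On the same scale 0 of 20 chains were 2-fold apart, and 1.09% of all genes tested were (0.363% higher and 0.726% lower in replicate 2). By the rule of counting intervals that do not overlap, 6 chains were higher and 11 lower in the replicate 2 libraries. This was 17 of 20, against 50.3% of all genes tested (32.5% higher and 17.8% lower). The rule calls smaller differences in genes with more reads, and Col5a2 was called at 1.04 times and 1.03 times within passages 9 and 39. Shares of all genes, here and below, were not matched for reads to the chains or lists set beside them. The median log2 difference of the chains was -0.19, while that of all genes tested was 0.10. Because the median of all genes was itself shifted by 0.10, the counts were repeated after dividing each library by its median ratio to the others. The chains then numbered 4 higher and 14 lower with a median of -0.30, and all genes 19.4% higher and 25.4% lower with a median of 0.01. Col5a2, called higher as deposited, was called lower after this scaling, Col5a1 was no longer called, and Col5a3 and Col11a1 became called lower. The chains that were higher under each of the 3 scalings tried, which included a common sum of RPKM, were Col1a1, Col4a5, Col6a1 and Col6a2.

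Of the 20 chains that averaged 1 RPKM or more, the type VI pair and Col4a5 had the highest ratios of replicate 2 to replicate 1. Col6a2 was 1.62 times (1.59 to 1.65) higher at passage 9 and 1.60 times (1.57 to 1.63) at passage 39, and Col6a1 was 1.60 times (1.57 to 1.63) and 1.58 times (1.55 to 1.61). Col4a5 was 1.49 times (1.39 to 1.60) and 1.50 times (1.40 to 1.62). On the log2(RPKM + 1) scale these were differences of 0.68, 0.66 and 0.50 as deposited, and of 0.57, 0.55 and 0.40 after median-ratio scaling. Col1a1 was 1.16 times (1.156 to 1.163) and 1.12 times (1.119 to 1.126) higher, and its log2 difference of 0.19 became 0.08 after scaling.

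The chains that were lower in the replicate 2 libraries included every FACIT gene tested except Col9a2. These FACIT genes were 5 of 6 as deposited and after scaling, against 17.8% and 25.4% of all genes tested. One of the FACIT genes, Col20a1, averaged 1 RPKM only through the replicate 1 libraries, so that the minimum itself favoured a lower call. With a minimum of 1 RPKM in the libraries of both numbers, which was chosen after seeing the data and leaves Col20a1 out, 4 of 5 FACIT genes were lower as deposited and after scaling. The chains as a whole were then 6 higher and 10 lower of 19 as deposited, and 4 higher and 13 lower after scaling. The shares of all genes under this minimum were not counted. As a description, Col20a1 was at 0.386 times (0.332 to 0.447) and 0.331 times (0.286 to 0.381) the replicate 1 level at passages 9 and 39. Its difference was -0.84 with the pseudocount of 1 RPKM and -1.38 with one of 0.1 RPKM, which is past 2-fold. Col8a2 was at 0.557 times (0.463 to 0.667) and 0.493 times (0.405 to 0.598). Col3a1, the fibrillar chain with the lowest ratio, was at 0.608 times (0.592 to 0.624) and 0.592 times (0.576 to 0.608), with a log2 difference of -0.73 as deposited and -0.84 after scaling. Col12a1 differed by -0.51, Col9a3 by -0.47, Col16a1 by -0.36, Col4a1 by -0.32, Col4a2 and Col27a1 both by -0.29, and Col14a1 and Col18a1 both by -0.19.

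**Figure D4:**
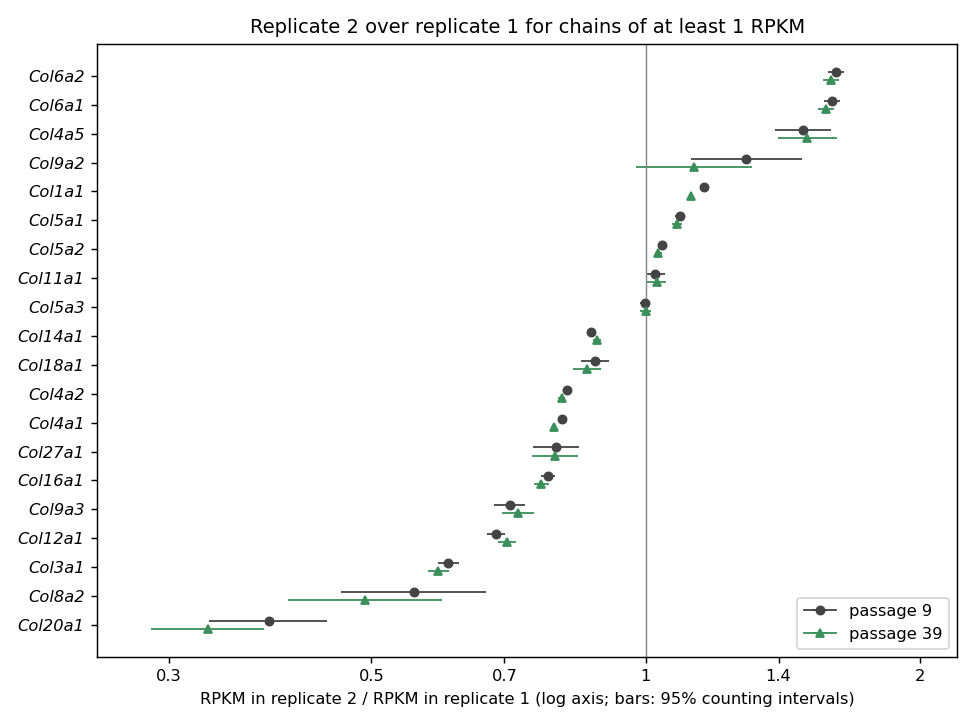
Ratio of the RPKM in replicate 2 to that in replicate 1 for the 20 chains that averaged 1 RPKM or more, on a log axis, computed within passage 9 (dark circles) and within passage 39 (green triangles), with 95% counting intervals as bars. The ratios of the 2 passages lie close together for each chain, from 0.331 for Col20a1 to 1.62 for Col6a2. Values are as deposited, and Col5a2, Col5a1, Col11a1 and Col5a3, near 1, change call with scaling.

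By class, the fibrillar chains were divided, with 3 higher (Col1a1, Col5a2 and Col5a1), 2 lower (Col3a1 and Col27a1) and 2 without a call (Col5a3 and Col11a1) as deposited, of which Col5a2 turned to lower and Col5a1 lost its call after scaling. Type IV was divided between Col4a5, higher, and Col4a1 and Col4a2, lower. Both type VI genes tested were higher under each scaling. Of all genes tested, 32.5% were higher and 17.8% lower as deposited, and 19.4% and 25.4% after median-ratio scaling. Among the 24 members under 1 RPKM, Col6a5 was higher in the replicate 2 libraries by the interval rule, and Col7a1 and Col19a1 were lower. Col19a1 had only 20, 0, 11 and 1 reads. The share over all genes under 1 RPKM was not counted, so these calls are not read as particular to the chains.

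Gene length moved with this comparison. The 20 chains had a median length of 5993 bases, compared with 2621 bases over all genes tested, and 20 of 20 were longer than that median. Across 20 length bins of all genes tested, the median log2 difference between replicate numbers went from 0.28 in the shortest genes to -0.22 in the longest. Set against genes of like length, the chains had a median of -0.17, with 9 chains above and 11 below 0. The part of length in the differences of single chains was not tested.

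Markers of cells other than Schwann cells were compared in the same way. The summed pericyte and smooth muscle markers were 469, 1008, 470 and 996 RPKM, and nearly all of this was Acta2, smooth muscle actin, at 444, 986, 445 and 974 RPKM. Without Acta2 the sum was 25.0, 22.5, 25.0 and 22.4 RPKM, and Rgs5 was listed at 0. Among the Schwann cell markers, Erbb3, a receptor for neuregulin signals, was at 104, 74.6, 102 and 76.2 RPKM, lower in both replicate 2 libraries, whereas the levels of Sox10 given above lay close together. The summed endothelial markers were between 0.307 and 0.435 RPKM. Whether these markers have a part in the differences of the chains was not tested, and in bulk RNA fewer cells of a type and less RNA per cell cannot be told apart.

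The genes that modify, fold, cut, crosslink and bind collagen were taken from a list of 56 symbols, of which 47 were in the files and 34 had a mean of at least 1 RPKM. Between passages, 0 of the 34 were 2-fold apart. By replicate number, 1 was, Itga1, the alpha 1 subunit of a collagen-binding integrin, at 8.53, 3.26, 8.19 and 3.10 RPKM and a log2 difference of -1.16. By the interval rule 17 were higher and 8 lower in the replicate 2 libraries as deposited (50% and 23.5% of the 34, against 32.5% and 17.8% of all genes tested). After median-ratio scaling 15 were higher and 14 lower (44.1% and 41.2%, against 19.4% and 25.4% of all genes).

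The genes of prolyl and lysyl hydroxylation, which stabilize the triple helix and prepare crosslinks, numbered 10 higher and 1 lower of 13 in the replicate 2 libraries as deposited (76.9% and 7.69%, against 32.5% and 17.8% of all genes tested) and 9 higher and 3 lower after scaling (69.2% and 23.1%, against 19.4% and 25.4%). P4hb, the beta subunit of prolyl 4-hydroxylase and also a disulfide isomerase, was at 508, 664, 506 and 659 RPKM. Its catalytic partner P4ha1 was at 115, 151, 111 and 152 RPKM. Ppib, a cyclophilin of the prolyl 3-hydroxylase complex, was at 360, 469, 366 and 463 RPKM. Each of these 3 genes was higher in both replicate 2 libraries. Plod3, a lysyl hydroxylase, was at 77.5, 100.3, 78.0 and 99.1 RPKM, while Plod1 was between 75.0 and 76.5 RPKM with no call as deposited and lower after scaling.

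Among genes of chaperoning and export, 5 of 6 were higher and 0 lower as deposited (83.3% and 0%, against 32.5% and 17.8% of all genes tested), and 4 higher and 1 lower after scaling (66.7% and 16.7%, against 19.4% and 25.4%). Serpinh1 (Hsp47), the collagen-specific chaperone, was at 1123, 1679, 1126 and 1629 RPKM, a log2 difference of 0.56. Sparc, a secreted protein that binds collagen, was at 2440, 2599, 2458 and 2559 RPKM and had the fourth highest level of all genes in each library. It was higher in the replicate 2 libraries as deposited (0.07) and lower after scaling (-0.04). The peptidyl-prolyl isomerase Fkbp10 was at 78.2, 93.3, 79.0 and 94.1 RPKM.

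Outside the cell, the order was mixed. Pcolce, an enhancer of C-propeptide removal, was at 133, 218, 134 and 211 RPKM, whereas the protease it helps, Bmp1, was between 55.9 and 57.9 RPKM with no call as deposited and lower after scaling. The crosslinking enzymes numbered 0 higher and 3 lower of 4 as deposited (0% and 75%, against 32.5% and 17.8% of all genes tested), and 4 lower after scaling (100%, against 25.4%), led by Loxl3 at 150, 120, 150 and 118 RPKM and Loxl2 at 86.0, 73.8, 88.9 and 74.6 RPKM. Lox itself was at 2.52, 2.03, 2.64 and 2.07 RPKM. Of 7 receptors, 1 was higher and 3 were lower as deposited (14.3% and 42.9%, against 32.5% and 17.8% of all genes tested), and 1 and 4 after scaling (14.3% and 57.1%, against 19.4% and 25.4%). Itgb1, the beta 1 integrin subunit, was at 488, 432, 491 and 438 RPKM, and the collagen receptors Ddr1 (67.8 to 74.2 RPKM) and Gpr56 (80.4 to 84.2 RPKM) had no call as deposited, Ddr1 becoming lower after scaling.

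**Figure D5:**
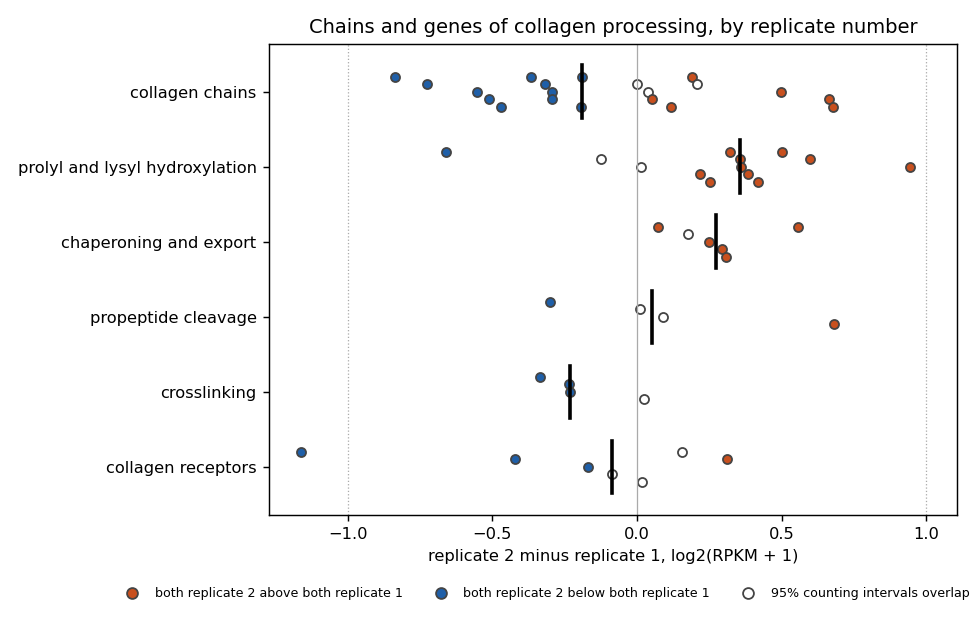
Log2(RPKM + 1) difference of replicate 2 minus replicate 1 for the 20 chains and for 34 genes of collagen processing and binding, one point per gene with the list median as a black line. Orange points have both replicate 2 libraries above both replicate 1 libraries, blue points below, open points have overlapping counting intervals, and dotted lines mark 2-fold. As deposited, the hydroxylation list has 10 orange points of 13 and the chains 6 of 20, and after median-ratio scaling 9 of 13 and 4 of 20.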

How the data were processed

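Poly(A) RNA of 2 unmodified S16 populations was sequenced from 2 libraries each as 50 bp single ends. The authors deposited RPKM values per RefSeq gene symbol. Per the labels and the study's methods, reads were aligned to rn5 with STAR, and uniquely mapped reads were counted with HTSeq without strand. Versions and the gene models behind the lengths are not given in the sources used here. The study's methods name another annotation and a count-based test of counts not used here.

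Library totals, gene lengths and reads were recovered as the smallest whole numbers that give the RPKM values, for 20333 of 20333 genes above 0, and the method was tested on simulated data. A factor shared by the length and all reads of a gene is lost, so both can be low by that factor, above all in genes with few reads. Intervals are exact Clopper-Pearson 95% intervals for counting error only. Passage means and means by replicate number were compared as log2(RPKM + 1), which understates differences of low genes, over the 11025 genes that averaged 1 RPKM or more, and 2-fold was the call. The rule of intervals that do not overlap and the adjustment for length were chosen after seeing the data. Genes named in full were members with a mean of at least 5 RPKM or past 2-fold, other members by the extremes of their class, and pathway genes of at least 50 RPKM or past 2-fold. Some low members and pathway genes outside this rule were named after their values were seen. The members and lists were chosen with earlier results of these data known. Same-numbered libraries deviated together, so the number pairs them by the data, not by a stated design. Col21a1 and 9 pathway symbols matched no symbol in the files. Python 3.11.15, numpy 2.4.6, pandas 2.3.3, scipy 1.17.1 and matplotlib 3.10.9 were used. Promoter sequences are from RefSeq, GRCr8.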

Additional observations from a re-analysis of the deposited data

Results flagged for a closer look

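Of the 40 collagen chain genes above 0 in some library, 3 were set apart. Col25a1, a transmembrane chain, had 1 recovered read, the smallest count that gives its value, in passage 9 replicate 2. It had none in the other 3 libraries, which set that library far from the rest. Col9a1 had 1 read in passage 9 replicate 1 and none elsewhere. A gene with reads in only 1 library always shows such a gap, so both flags were fixed in advance. The rate of about 1 of 20 groups by chance does not hold for such values, and a single recovered read carries no level. For Col1a1 the passage difference had opposite signs in the replicate 1 and replicate 2 libraries, so that the passage differences of the replicate numbers differed by -0.046 on the log2(RPKM + 1) scale (replicate 2 minus replicate 1). This difference was not tested, since each passage and number had 1 library. Between the replicate 2 libraries the chi-square of Col1a1 was 324, the highest of any gene in that pair.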

How the results depend on the processing

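The count of 20 chains with a mean of at least 1 RPKM stayed within 1.5 times under every alternative. The summed chain level was 18891 RPKM when libraries were rescaled to a sum of 1000000, and 6192 to 6366 RPKM when each library was left out in turn. The median passage difference of the chains moved from -0.019 to between -0.10 and 0.096 when each library was left out. Without passage 9 replicate 1 it was 0.096, without passage 39 replicate 2 it was 0.092, without passage 9 replicate 2 it was -0.093, and without passage 39 replicate 1 it was -0.10. Pairing libraries by replicate number as a replicate block gave -0.018 with 0 chains past 2-fold, and the comparison by number, blocked by passage, gave -0.19 and 0, so the block changed no call. By replicate number, 1 chain (Col20a1) was past 2-fold with the common sum of 1000000 and 1 with the pseudocount of 0.1 RPKM, where the main count was 0. The median by number, -0.19 as deposited, was -0.34 with the common sum, -0.30 with median-ratio scaling, -0.19 (-0.194) with the pseudocount of 0.1 RPKM, -0.0025 with no minimum and -0.17 (chosen after seeing the data) relative to genes of similar length. Over all genes, 120 were past 2-fold by number, and 325 with the common sum and 251 with the pseudocount of 0.1 RPKM. Between passages 1 gene was past 2-fold, against 4 with the common sum, 9 to 26 with a library left out and 0 with a minimum of 5 RPKM. Of 17 chains named in full, 13 kept the sign of the difference by number in all 11 alternatives and 1 that by passage in all 10. The passage sign of 15 of the other 16 changed only when a library was left out, which leaves the replicate numbers unequal between the passages, and that of Col18a1 also with another scaling. With the replicate block 0 passage signs changed. Col5a2, Col5a3, Col5a1 and Col11a1 were the chains whose sign by number changed. Chains with a few reads, such as Col6a3, Col4a6 and Col9a1, could not be compared at this depth.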
